A study of Homo sapiens with 10 samples.

Results

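The mRNAs of FOXO1, FOXO3, INSR, IRS1, IRS2, PIK3IP1, BCL6, TXNIP, ARRDC4 and SESN3 were followed in a human prostate cancer cell line, PC-3, exposed to luteolin and gefitinib. These 10 genes, chosen by name from the scanner files (FOXO1 and FOXO3 also under the older symbols FOXO1A and FOXO3A), were 10 of the 28090 named genes on the array, and 9 of them were among the 19718 genes bright enough to test. RNA was hybridized to 10 single-color Agilent whole-genome arrays, 2 in each of 5 groups. One group held untreated cells at 0 h (no drug, no solvent), and the others were kept for 24 h in the solvent DMSO, in luteolin (60 µM), in gefitinib (60 µM), or in both at 60 µM each (L+G). Both drugs were dissolved in DMSO. Luteolin is a plant flavonoid, and gefitinib is an inhibitor of the tyrosine kinase of the epidermal growth factor (EGF) receptor. The labels call the arrays of a group biological replicates and the design text says that each sample was run in duplicate, so p-values measure the spread between arrays that may be technical. All groups are of 1 cell line.

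For the 6 drug-treated arrays the treatment in the scanner file's name was not the one in the sample labels. Arrays labelled luteolin had gefitinib in the file name, those labelled gefitinib had both drugs, and those labelled L+G had luteolin. The probe of LEFTY1, an inhibitor of Nodal signaling looked at after the labels were found to conflict, bears on this. At 0 h it read 1.58 and 1.14% of the array's 75th percentile, and with DMSO 1.05 and 0.919%. The luteolin label had 4.55 and 11.1%, the gefitinib label 23.7 and 7.45%, and the L+G label 94.3 and 119%. The study's text describes LEFTY1 as most raised by luteolin alone, less by both drugs and least by gefitinib alone, each against 0 h. The arrays highest here are those with luteolin in the file name, not in the label. By the geometric mean of each pair, the file names gave the study's order (luteolin, both drugs, gefitinib), and the labels did not. Arrays labelled luteolin and gefitinib (gefitinib and both drugs in the file names) overlapped each other in level, and the order between them was not tested. The labels of these 6 arrays may therefore be exchanged. Groups are still called luteolin, gefitinib and L+G arrays by their labels throughout, and no direction below is tied to a drug more firmly than that. Read by the file names, every value against DMSO keeps its size and moves to another drug, from luteolin to gefitinib, from gefitinib to L+G and from L+G to luteolin. Of the 18 called results (14 against DMSO and 4 interactions), 5 then kept their direction and call, 4 lost the call and 9 turned in sign. A level is the signal as a percent of the 75th percentile of its array, and changes are given on the log2 scale with the standard error (SE, n = 2 arrays per group). To be called raised or lowered, a gene had to differ 2-fold or more with an adjusted p below 0.05. The 75th percentile was 1041 to 1402 on the 0 h, DMSO and luteolin arrays and 539.8 to 864.6 on the gefitinib and L+G arrays, between 63.4% and 70.4% of probes were well above background, and 0 probes were saturated. Among the markers of the cell line, all 5 epithelial genes (KRT8, KRT18, KRT19, EPCAM and CDH1) were well above background on all 10 arrays. Of the 3 probes of KLK3, the prostate-specific antigen gene, 1 was well above background on 10 arrays and 2 on 0.

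Growth factor and insulin receptors activate phosphoinositide 3-kinase (PI3K) through adaptors such as IRS1 and IRS2, and PI3K activates the kinase AKT. AKT phosphorylates the FOXO transcription factors and keeps them out of the nucleus. When the pathway is quiet, FOXO factors enter the nucleus and are known to induce genes such as INSR, IRS2, PIK3IP1, BCL6 and SESN3, which either restore or restrain signaling. TXNIP and ARRDC4, both alpha-arrestins, restrain glucose uptake and are textbook targets of the glucose-sensing factor MondoA.

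Promoter windows from RefSeq (build GRCh38.p14), each 250 bases before to 50 bases after a gene start, matched 10 of the 10 genes with 16 windows. Shown 5′ to 3′ are the 250 bases before the start of TXNIP, ARRDC4 and IRS2, because TXNIP and ARRDC4 were raised together on the L+G arrays and IRS2 in every drug-treated group. They lie at chr1:145996580-145996829 (minus strand), chr15:97960453-97960702 (plus strand) and chr13:109786584-109786833 (minus strand). Capitals mark matches, on either strand, to GTAAACA (a forkhead core), CAAAACA (an insulin response sequence), CACGTG (an E-box) and a pair of CACGNG with 5 bases between them, the layout of a carbohydrate response element.
TXNIP: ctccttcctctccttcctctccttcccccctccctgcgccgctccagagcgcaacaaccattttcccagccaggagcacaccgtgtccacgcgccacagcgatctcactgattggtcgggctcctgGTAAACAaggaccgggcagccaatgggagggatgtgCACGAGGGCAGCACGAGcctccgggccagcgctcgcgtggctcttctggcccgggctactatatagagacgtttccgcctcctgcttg
ARRDC4: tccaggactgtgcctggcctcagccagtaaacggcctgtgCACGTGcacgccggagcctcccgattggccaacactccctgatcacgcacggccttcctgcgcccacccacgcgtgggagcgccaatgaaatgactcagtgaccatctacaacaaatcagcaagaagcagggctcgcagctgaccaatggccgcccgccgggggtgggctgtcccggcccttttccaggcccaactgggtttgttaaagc
IRS2: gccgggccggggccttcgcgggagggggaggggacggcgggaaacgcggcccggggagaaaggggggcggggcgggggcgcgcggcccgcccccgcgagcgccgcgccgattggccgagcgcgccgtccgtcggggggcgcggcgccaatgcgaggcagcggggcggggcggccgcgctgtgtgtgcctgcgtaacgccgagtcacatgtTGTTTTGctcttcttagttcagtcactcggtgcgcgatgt
In TXNIP, GTAAACA lay 124 to 118 bases and the CACGNG pair 88 to 72 bases before the start. The other TXNIP window, at chr1:145995695-145995994, held no match to any of these motifs. ARRDC4 held CACGTG 210 to 205 bases before the start, and IRS2 held CAAAACA, read on the other strand, 40 to 34 bases before it. Among all 35116 windows of 300 bases, GTAAACA was in 3.42%, CAAAACA in 4.92%, CACGTG in 7.26% and the CACGNG pair in 0.057% (20 windows). The motifs can share bases with each other. Among the 10 genes, GTAAACA was in TXNIP and PIK3IP1 (after the start in the latter), CAAAACA in IRS2, CACGTG in ARRDC4 and IRS1 (after the start in the latter) and the pair in TXNIP. These matches describe letters and not bound sites.

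Against DMSO, 4 of the 9 tested genes (FOXO1, IRS2, PIK3IP1 and BCL6) were raised and 0 lowered on the luteolin arrays, where 7.22% of all genes were raised and 6.17% lowered. On the gefitinib arrays 1 was raised (IRS2) and 5 were lowered (FOXO1, INSR, IRS1, TXNIP and BCL6), where 15.6% of all genes were raised and 14.3% lowered. The L+G arrays had 4 raised (FOXO3, IRS2, TXNIP and ARRDC4) and 0 lowered, where 12.1% of all genes were raised and 7.69% lowered. IRS2 was raised in all 3 drug-treated groups, which holds whichever source names their drug. The median log2 change of the 9 genes was 0.60, -1.22 and 0.70 in the luteolin, gefitinib and L+G arrays, and that of all genes was 0.08, 0.22 and 0.16. Because these 3 comparisons share the DMSO arrays, their errors are not independent. RNA was measured in bulk, so fewer cells of a type and less RNA per cell cannot be told apart.

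**Figure D1:**
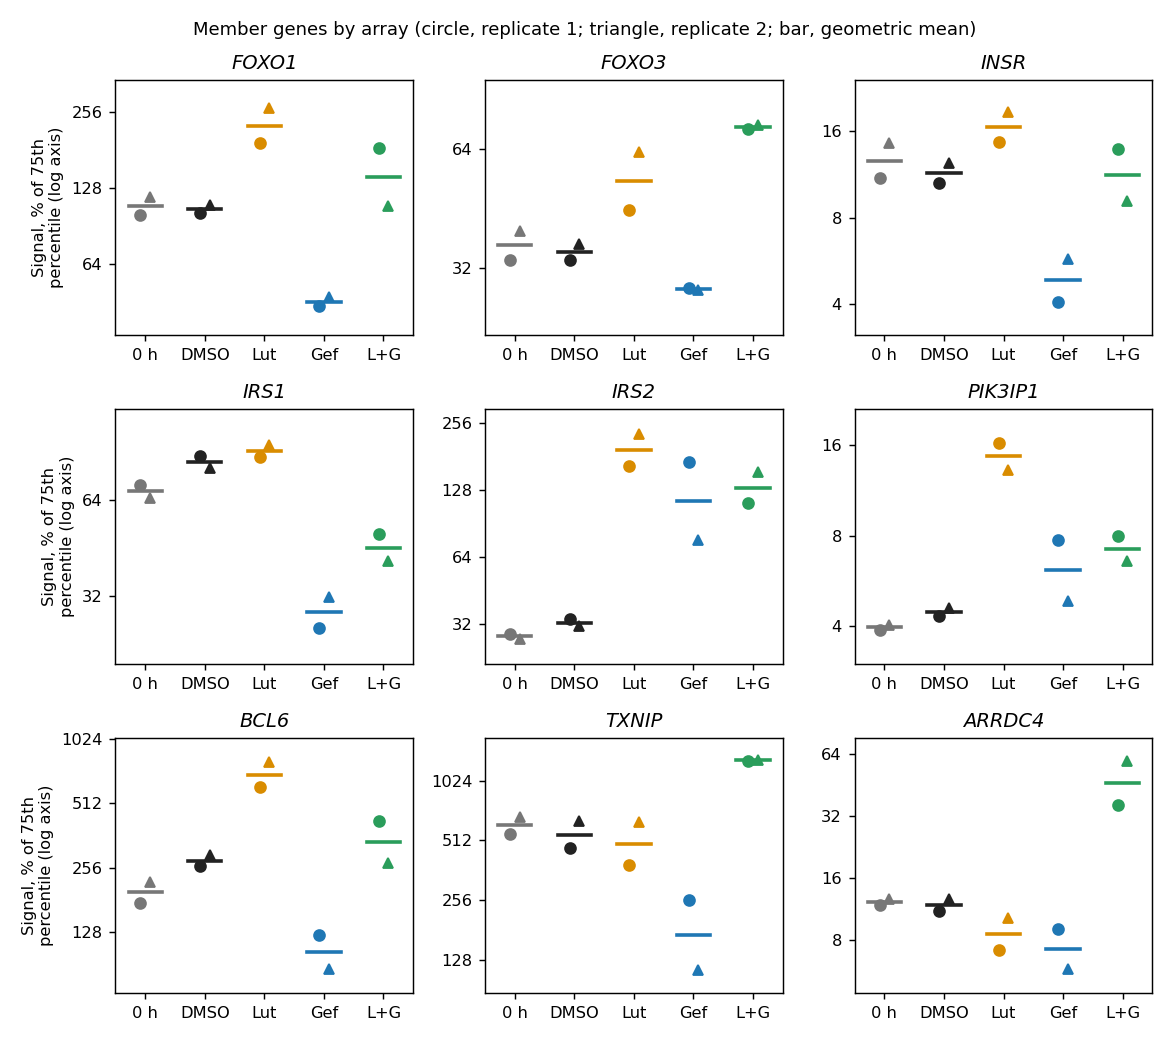
Signal of the 9 tested genes on each of the 10 arrays, as a percent of the array's 75th percentile on a log axis, by labelled group (0 h, DMSO, Lut for luteolin, Gef for gefitinib, L+G). Circles are replicate 1, triangles replicate 2 and bars the geometric mean. IRS2 stood at 27.7 to 34.0% on the 0 h and DMSO arrays and at 76.9 to 228.5% on all drug-treated arrays, while TXNIP stood at 1291 and 1301% on the L+G arrays.

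FOXO1 and FOXO3 encode the FOXO factors themselves. The FOXO1 probe (chr13:40031128-40031661 in hg18, minus strand, a span of 534 bases) read 100.0 and 117.5% of the 75th percentile at 0 h and 101.3 and 109.0% with DMSO. On the drug-treated arrays its levels were 192.9 and 264.7% on the luteolin arrays, 43.2 and 47.2% on the gefitinib arrays, and 184.9 and 107.9% on the L+G arrays. Arrays labelled luteolin were thus all above and gefitinib arrays all below the controls, while the L+G arrays disagreed, with 1 of them inside the DMSO range. The change against DMSO was 1.10 (SE 0.268, adjusted p = 0.0192, 2.15-fold) on the luteolin arrays. On the gefitinib arrays it was -1.22 (SE 0.268, adjusted p = 0.00649, 2.33-fold lower). On the L+G arrays it was 0.43 (SE 0.268, 95% confidence interval -0.19 to 1.04, adjusted p = 0.227). A second FOXO1 probe gave the same call in each group, with a change of -1.82 on the gefitinib arrays. The luteolin call of FOXO1 was lost without DMSO replicate 1 (adjusted p = 0.109), DMSO replicate 2 (0.0854) or luteolin replicate 2 (0.139), with changes of 1.05, 1.16 and 0.88.

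For FOXO3 (chr6:109107727-109107786 in hg18, plus strand) the gefitinib pair and the L+G pair each agreed closely. Its levels were 33.5 and 39.6% at 0 h, 33.5 and 36.7% with DMSO, 44.8 and 62.8% on the luteolin arrays, 28.5 and 28.1% on the gefitinib arrays, and 72.1 and 73.8% on the L+G arrays. The L+G arrays exceeded every other array. The rise against DMSO in the L+G arrays was 1.06 (SE 0.193, adjusted p = 0.00513, 2.08-fold). A second FOXO3 probe changed by 0.89 there (adjusted p = 0.00769, 1.86-fold), short of the 2-fold limit. The changes on the luteolin arrays, 0.60 (adjusted p = 0.0533), and on the gefitinib arrays, -0.31 (adjusted p = 0.204), did not pass the test. The L+G call also fell below 2-fold with normexp background correction (0.96), with the median over its probes (0.98) and without DMSO replicate 1 (0.99).

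INSR encodes the insulin receptor and IRS1 and IRS2 the adaptors that dock PI3K to it. INSR (chr19:7067899-7067958 in hg18, minus strand) stood at 11.0 and 14.5% at 0 h and 10.6 and 12.5% with DMSO. It read 14.8 and 18.6% on the luteolin arrays, 4.06 and 5.77% on the gefitinib arrays, and 13.9 and 9.15% on the L+G arrays. The gefitinib arrays were below all 8 other arrays, a change of -1.25 against DMSO (SE 0.274, adjusted p = 0.00645, 2.37-fold lower). Before scaling INSR read 26.4 and 36.3 there, not far above the lowest well-above-background signals of those arrays, 21.6 and 17.2. The size of this change is therefore uncertain. Changes on the luteolin arrays (0.53, adjusted p = 0.197) and the L+G arrays (-0.03, 95% confidence interval -0.66 to 0.60, adjusted p = 0.94) did not pass. The fall of INSR depended on the background correction, since normexp gave -0.15 (adjusted p = 0.494). Without gefitinib replicate 1 it was -0.99 (adjusted p = 0.0419), just short of 2-fold.

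IRS1 (chr2:227308392-227308451 in hg18, minus strand) stood at 71.5 and 65.3% at 0 h and at 88.3 and 80.7% with DMSO. On the luteolin arrays it was 87.7 and 95.5%, overlapping DMSO. It was 25.5 and 31.8% on the gefitinib arrays and 50.1 and 41.3% on the L+G arrays, so that both groups lay below every control array and the gefitinib arrays lay lowest. The fall on the gefitinib arrays had the lowest adjusted p of the 9 genes in that comparison, with a change of -1.57 (SE 0.18, adjusted p = 0.000474, 2.96-fold lower). The L+G change of -0.89 (SE 0.18, adjusted p = 0.0073, 1.86-fold lower) was below the 2-fold limit. On the luteolin arrays the change was 0.12 (95% confidence interval -0.30 to 0.53, adjusted p = 0.678).

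IRS2 ran opposite to IRS1 on the gefitinib arrays. Its brightest probe (chr13:109204646-109204705 in hg18, minus strand) read 28.9 and 27.7% at 0 h and 34.0 and 31.3% with DMSO. Levels were 163.9 and 228.5% on the luteolin arrays, 171.8 and 76.9% on the gefitinib arrays, and 111.6 and 153.9% on the L+G arrays. Each drug-treated array thus exceeded each control array, and the gefitinib pair was the most scattered. Rises against DMSO were 2.57 (SE 0.356, adjusted p = 0.00205, 5.93-fold) on the luteolin arrays, 1.82 (SE 0.356, adjusted p = 0.00413, 3.52-fold) on the gefitinib arrays and 2.01 (SE 0.356, adjusted p = 0.00463, 4.02-fold) on the L+G arrays. A pair of dimmer probes, at 1.82 to 3.21% on the control arrays, rose in the same 3 groups by a smaller amount, from 2.12-fold to 2.49-fold. The probes of IRS2 therefore agreed in direction and call but not in size. No alternative that kept the labels ended any of these 3 calls.

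PIK3IP1 encodes a membrane protein that inhibits PI3K. Its usable probe (chr22:30008229-30008288 in hg18, minus strand) stood at 3.90 and 4.04% at 0 h and 4.35 and 4.59% with DMSO, and was well above background on all 10 arrays. It rose to 16.2 and 13.2% on the luteolin arrays, a change of 1.71 (SE 0.236, adjusted p = 0.00201, 3.28-fold). Readings were 7.73 and 4.87% on the gefitinib arrays and 7.96 and 6.59% on the L+G arrays, all above the controls after scaling. Before scaling the probe read 50.3 and 30.6 on the gefitinib arrays and 68.8 and 35.6 on the L+G arrays. With DMSO it read 58.7 and 58.9, so only L+G replicate 1 was then above DMSO. The lower of these signals were not far above the lowest well-above-background signals of their arrays, 17.2 (gefitinib replicate 2) and 15.9 (L+G replicate 2). The gefitinib change was 0.46 (adjusted p = 0.131), and the L+G change was 0.70 (SE 0.236, adjusted p = 0.0447, 1.62-fold), under the 2-fold limit. A second PIK3IP1 probe was well above background on 0 arrays and gave no test.

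BCL6, a transcriptional repressor, had levels of 174.8 and 219.0% at 0 h and 259.9 and 293.2% with DMSO (probe at chr3:188922335-188922394 in hg18, minus strand). Arrays labelled luteolin read 608.1 and 802.4%, gefitinib arrays 124.2 and 85.9%, and L+G arrays 423.2 and 268.0%. As for FOXO1, the luteolin arrays lay above and the gefitinib arrays below all control arrays, and 1 L+G array lay inside the DMSO range. The change against DMSO was 1.34 (SE 0.281, adjusted p = 0.0109, 2.53-fold) on the luteolin arrays. On the gefitinib arrays it was -1.42 (SE 0.281, adjusted p = 0.00435, 2.67-fold lower), and on the L+G arrays 0.29 (adjusted p = 0.434). Against 0 h the gefitinib change was -0.92 (adjusted p = 0.0242), short of 2-fold, while the luteolin change was 1.84 (adjusted p = 0.00251). The luteolin call against DMSO was lost without DMSO replicate 1 (adjusted p = 0.0769), DMSO replicate 2 (0.0549) or luteolin replicate 2 (0.0894).

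TXNIP encodes the thioredoxin-interacting protein (probe at chr1:144153804-144153863 in hg18, plus strand). It read 551.9 and 674.5% at 0 h, 470.5 and 638.9% with DMSO, and 385.1 and 633.9% on the luteolin arrays. On the gefitinib arrays it read 257.7 and 113.4%, and on the L+G arrays 1291 and 1301%. The L+G pair agreed closely and topped all 8 other arrays, whereas the gefitinib pair lay lowest and differed between its arrays by more than any other group. The fall on the gefitinib arrays was -1.68 (SE 0.387, adjusted p = 0.00778, 3.21-fold lower). The rise on the L+G arrays was 1.24 (SE 0.387, adjusted p = 0.0343, 2.36-fold). On the luteolin arrays the change was -0.15 (95% confidence interval -1.04 to 0.74, adjusted p = 0.812). The L+G call was lost with quantile normalization (1.05, adjusted p = 0.0645), with no filter on dim probes (adjusted p = 0.0631), and without either 0 h array, either DMSO array or either L+G array (adjusted p from 0.0512 to 0.169). The gefitinib call was lost without DMSO replicate 2 (-1.46, adjusted p = 0.0558).

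ARRDC4, the other alpha-arrestin (probe at chr15:96317899-96317958 in hg18, plus strand), had levels of 11.8 and 12.7% at 0 h and 11.1 and 12.7% with DMSO. Those were 7.16 and 10.2% on the luteolin arrays, 9.08 and 5.78% on the gefitinib arrays, and 36.2 and 59.1% on the L+G arrays. Every array labelled with a single drug lay below the controls and both L+G arrays lay above them. The L+G rise was 1.96 (SE 0.304, adjusted p = 0.00286, 3.90-fold), while changes of -0.47 (adjusted p = 0.299) on the luteolin arrays and -0.71 (adjusted p = 0.0781) on the gefitinib arrays did not pass. No alternative that kept the labels ended the L+G call.

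SESN3, a stress-inducible inhibitor of the growth kinase complex mTORC1, could not be tested. Its probe (chr11:94557236-94557295 in hg18, minus strand) was well above background on 0 of 10 arrays, with readings of 0.479 to 1.93%, below what these arrays resolve.

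**Figure D2:**
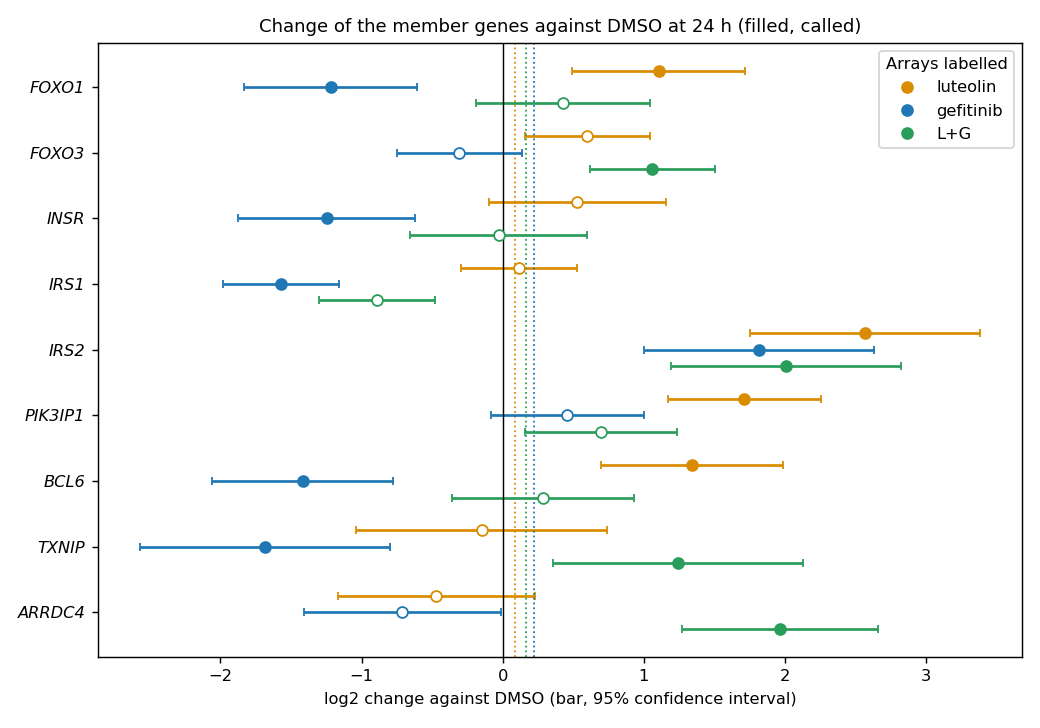
Log2 change of each tested gene against DMSO in the arrays labelled luteolin, gefitinib and L+G, with 95% confidence intervals. Filled points passed the adjusted p and 2-fold limits, and dotted lines mark the median change of all 19718 genes. FOXO1 and BCL6 lie right of 0 on the luteolin arrays and left of 0 on the gefitinib arrays, while IRS2 lies right of 0 in all 3 groups.

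The order of the groups differed between the genes. By geometric mean, the group labelled gefitinib was lowest for FOXO1, FOXO3, INSR, IRS1, BCL6, TXNIP and ARRDC4, while 0 h was lowest for IRS2 and PIK3IP1. The group labelled luteolin was highest for FOXO1, INSR, IRS1, IRS2, PIK3IP1 and BCL6, and that labelled L+G was highest for FOXO3, TXNIP and ARRDC4. For 1 gene, FOXO3, no neighbours in the order differed beyond their spread, with adjusted p between 0.0668 and 0.998. For each of 7 others a single step in the order was called. It was the step up from gefitinib for FOXO1 (to DMSO), INSR (to L+G) and TXNIP (to luteolin). For IRS2 it was the step from DMSO to gefitinib, for PIK3IP1 and BCL6 that from L+G to luteolin, and for ARRDC4 that from 0 h to L+G. No step was called for IRS1, whose gefitinib and L+G arrays differed by 0.68 (adjusted p = 0.0154) and whose L+G and 0 h arrays differed by 0.59 (adjusted p = 0.0321).

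Set directly against the gefitinib arrays, the luteolin arrays were higher for 6 of the 9 genes (FOXO1, INSR, IRS1, PIK3IP1, TXNIP and BCL6) and lower for 0, where 36.6% of all genes were called in either direction. The largest of these differences were 2.76 for BCL6 (SE 0.281, adjusted p = 0.00017, 6.76-fold) and 2.32 for FOXO1 (SE 0.268, adjusted p = 0.000274, 5.00-fold). IRS2 differed by 0.75 (95% confidence interval -0.06 to 1.57, adjusted p = 0.0986). In the L+G arrays 6 genes (FOXO1, FOXO3, INSR, TXNIP, ARRDC4 and BCL6) were higher than on the gefitinib arrays and 0 lower, where 27% of all genes were called. TXNIP led with 2.92 (SE 0.387, adjusted p = 0.000616, 7.58-fold), followed by ARRDC4 with 2.67 (SE 0.304, adjusted p = 0.000311, 6.38-fold). Against the luteolin arrays the L+G arrays were higher for TXNIP (1.39, adjusted p = 0.0223) and ARRDC4 (2.44, adjusted p = 0.000984) and lower for IRS1 (-1.01, adjusted p = 0.00386), PIK3IP1 (-1.01, adjusted p = 0.011) and BCL6 (-1.05, adjusted p = 0.019), where 21% of all genes were called. Those 5 calls were 3 without either luteolin array and 1 (ARRDC4) without L+G replicate 2.

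The untreated cells gave a second reference. Of the 9 genes 0 were changed with DMSO against 0 h, where 0.0355% of all genes were called by limma and 1217 had an unadjusted p under 0.05. BCL6 (0.50, adjusted p = 0.936) and IRS1 (0.31, adjusted p = 0.95) moved most, with unadjusted p of 0.114 and 0.127. The luteolin arrays against 0 h gave FOXO1, IRS2, PIK3IP1 and BCL6, the 4 genes called against DMSO, where 16.1% of all genes were called. On the gefitinib arrays 5 of the 9 genes passed (IRS2 raised, FOXO1, INSR, IRS1 and TXNIP lowered), where 29% of all genes did. On the L+G arrays FOXO3, IRS2 and ARRDC4 were raised against 0 h, where 19.8% of all genes were called, and TXNIP (1.09, adjusted p = 0.0537) missed the threshold. These comparisons share the drug-treated arrays with those against DMSO.

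The interaction of the drugs rests wholly on which arrays had both. Taken by the labels, as the L+G change minus the sum of the single-drug changes (all against DMSO), it passed an adjusted p of 0.05 for 4 of the 9 genes, where 34.2% of all genes passed. TXNIP and ARRDC4 were higher on the L+G arrays than the sum. Their single-drug changes added up to -1.83 and -1.18, and their L+G changes were 1.24 and 1.96. The interaction was 3.07 for TXNIP (SE 0.548, adjusted p = 0.00406) and 3.15 for ARRDC4 (SE 0.43, adjusted p = 0.00133). IRS2 and PIK3IP1 were lower there than the sum. For IRS2 the sum was 4.39 and the L+G change 2.01, an interaction of -2.38 (SE 0.503, adjusted p = 0.00835), and its other probes gave -1.21 and -1.36, both past the threshold. PIK3IP1 had a sum of 2.17 and an L+G change of 0.70, an interaction of -1.47 (SE 0.333, adjusted p = 0.0111). FOXO3 had 0.77 (adjusted p = 0.0601), and FOXO1, INSR, IRS1 and BCL6 had 0.37 to 0.69 with adjusted p from 0.123 to 0.498. When the file names gave the treatments, the interactions of TXNIP and ARRDC4 turned to -2.77 and -2.20, whereas IRS2 and PIK3IP1 kept their sign, and 9 genes passed in place of 4.

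**Figure D3:**
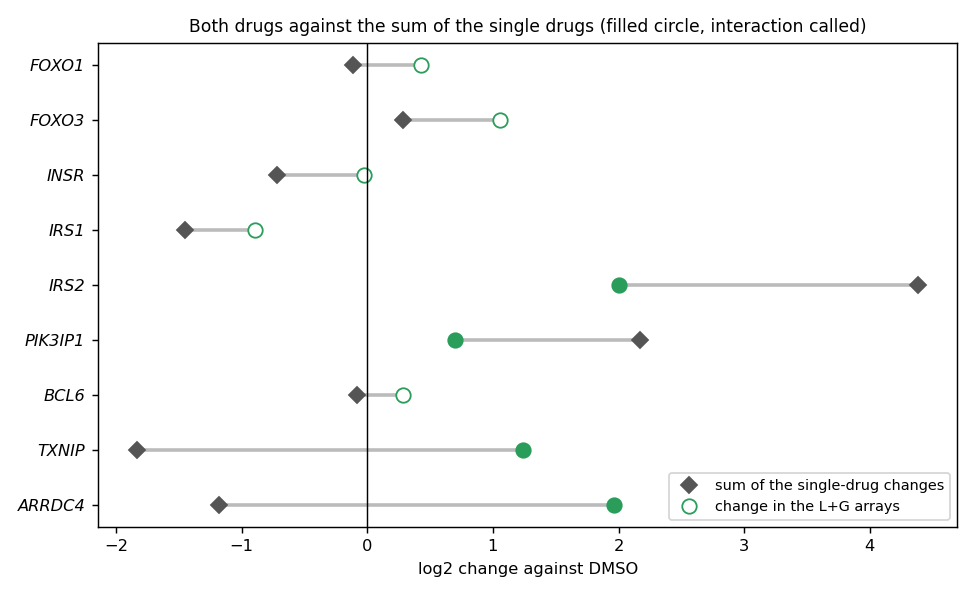
Sum of the log2 changes against DMSO under the single-drug labels (diamonds) and the change in the arrays labelled L+G (circles) for each tested gene. Filled circles mark an interaction with an adjusted p under 0.05. Circles lie far right of the diamonds for TXNIP and ARRDC4, by 3.07 and 3.15, and left of them for IRS2 and PIK3IP1.

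Arrays shared 3 slides, and the labelled groups were spread over them. For the 14 calls against DMSO the arrays of the groups compared did not overlap, so the direction within a slide was already fixed and only sizes are given. The smallest difference in size from the DMSO array of the same slide was that of TXNIP on gefitinib replicate 1, -0.87 against -1.68 in the fit, and the largest was that of IRS2 on a luteolin array, 2.87 against 2.57. The second gefitinib array had no DMSO array on its slide.

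The 75th percentile that scaled each array was 1350 and 1283 signal units with DMSO, 1173 and 1041 on the luteolin arrays, 650.7 and 628.4 on the gefitinib arrays and 864.6 and 539.8 on the L+G arrays. Signals before scaling are therefore given for the 14 calls against DMSO, as a description with no test. The share of all genes whose unscaled signals do not overlap DMSO was not taken, so overlap is only described gene by gene.

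On the luteolin arrays all 4 called genes stood above DMSO before scaling. FOXO1 read 2263 and 2756 against 1368 and 1399, IRS2 1923 and 2380 against 458.4 and 402.2, PIK3IP1 190.2 and 137.4 against 58.7 and 58.9, and BCL6 7134 and 8356 against 3509 and 3762. The 5 genes lowered on the gefitinib arrays stood below DMSO, where the whole array was also dimmer. Because scaling raised these arrays relative to DMSO, this direction before scaling was already fixed by the calls. FOXO1 read 281.4 and 296.6, INSR 26.4 and 36.3 against 143.1 and 159.9, TXNIP 1677 and 712.3 against 6351 and 8198, and BCL6 808.1 and 540.0. IRS1, at 1192 and 1035 with DMSO, lay lower on both gefitinib arrays, at 165.8 on the first.

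The rise of IRS2 on the gefitinib arrays was less clear before scaling. Its brightest probe read 1118 and 483.2, the lower array close to DMSO, and both dimmer probes overlapped DMSO, at 52.1 and 36.4 against 33.2 and 41.1 and at 45.5 and 31.9 against 31.0 and 32.1. On the L+G arrays IRS2 read 965.2 and 830.5 by the brightest probe. Of its dimmer probes there, one did not overlap DMSO (45.5 and 42.8) and the other did (43.4 and 27.7). ARRDC4 read 312.6 and 319.1 on the L+G arrays against 150.0 and 162.3, without overlap. TXNIP, at 11170 and 7022 on the L+G arrays, and FOXO3, at 623.4 and 398.4 against 451.8 and 470.6, overlapped DMSO. The rises of TXNIP and FOXO3 were therefore measured relative to the array's 75th percentile alone.

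Patterns across the 10 arrays were compared by the root mean square (RMS) difference of log2 levels, each gene centred on its own mean. Among the tested genes FOXO1 and INSR were nearest (0.29), followed by FOXO1 and BCL6 (0.297) and INSR and IRS1 (0.326), while TXNIP and ARRDC4 stood at 0.545 and TXNIP and IRS2 farthest apart at 1.53. Among 16264 genes well above background on all arrays, those nearest TXNIP were ZNF416 (0.228), RBBP6 (0.23), ZNF567 (0.256) and the unnamed transcripts CD239706 and THC2643320. Nearest IRS2 were the unnamed transcript AA593970 (0.27), PIM1 (0.28), KLF7 (0.28), the unnamed transcript THC2610705 (0.283) and ERN1 (0.301). For scale, the centred levels of TXNIP and IRS2 themselves had an RMS of 0.993 and 1.16.

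Around these genes, the pathway was read from lists of its other members. Its counts are to be read beside the shares of all genes given above. They include calls of genes not well above background on every array compared. These were IRS4 (raised on the L+G arrays), IGFBP1 (lowered in every drug-treated group) and SESN1 (lowered on the gefitinib arrays). Of the 11 tested PI3K subunits, 6 were lowered and 1 raised against DMSO on the gefitinib arrays, with a median of -1.03 where that of all genes was 0.22, while 0 were changed on the luteolin arrays and 1 was raised and 1 lowered on the L+G arrays. PIK3R1, the main regulatory subunit of PI3K, read 21.5 and 21.6% with DMSO and 6.51 and 3.72% on the gefitinib arrays, a change of -2.13 (adjusted p = 0.00146). PIK3C2B, a class II enzyme, and PIK3R4, a regulatory subunit of the class III enzyme, changed by -1.99 and -1.56 on the gefitinib arrays. PIK3R5, a regulatory subunit of the gamma enzyme, ran the other way, with 1.77 (adjusted p = 0.00119) on the gefitinib arrays and 1.06 (adjusted p = 0.0126) on the L+G arrays.

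AKT kinases and their regulators gave 13 tested genes, with 4 raised and 0 lowered on the luteolin arrays, 0 raised and 5 lowered on the gefitinib arrays, and 0 changed on the L+G arrays. TRIB3, a pseudokinase that binds AKT, was raised by 3.11 (adjusted p = 0.000845) on the luteolin arrays, from 1051 and 1209% with DMSO to 7198 and 13120%. SGK1, a kinase related to AKT, TRIB1, a relative of TRIB3, and PHLPP2, a phosphatase of AKT, were lowered on the gefitinib arrays, with changes of -2.09, -1.99 and -1.97. Of the 16 tested genes of the mTOR branch, 4 were raised on the luteolin arrays, 3 raised and 3 lowered on the gefitinib arrays, and 2 raised and 1 lowered on the L+G arrays. DDIT4, an inhibitor of mTORC1, was raised in all 3 groups, by 2.23, 1.44 and 2.06 on the luteolin, gefitinib and L+G arrays. SESN2, a relative of SESN3, was raised on the luteolin arrays (2.20, adjusted p = 0.0176). RPTOR, the scaffold subunit of mTORC1, was lowered on the gefitinib arrays (-2.32) and the L+G arrays (-1.72), and EIF4EBP2, a repressor of translation, on the gefitinib arrays (-1.46).

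Receptors and adaptors of insulin, IGF and ERBB signaling were raised in 3 (luteolin), 2 (gefitinib) and 1 (L+G) of 13 tested genes and lowered in 0. The L+G gene was IRS4, at 0.396 and 0.357% with DMSO and 5.71 and 8.59% on the L+G arrays. It passed the filter on dim probes only through the L+G arrays, so its call there carries no weight. The growth factor binding protein IGFBP3 (2.10, adjusted p = 0.00216) and the ligand IGF2 (1.68, adjusted p = 0.013) were raised on the gefitinib arrays. The adaptor GAB2 (1.64, adjusted p = 0.0022) and the receptor ERBB3 (1.32, adjusted p = 0.00129) were raised on the luteolin arrays. Other FOXO genes and FOXO regulators had 10 tested genes, with 2 raised and 1 lowered on the luteolin arrays, 2 lowered on the gefitinib arrays and 0 changed on the L+G arrays. FOXO4, another FOXO factor, read 6.27 and 5.97% with DMSO and 21.98 and 22.4% on the luteolin arrays, a rise of 1.86 (adjusted p = 0.00105). The deacetylase SIRT1 rose by 1.23 on the luteolin arrays, the ubiquitin ligase subunit SKP2 was lowered on the luteolin arrays (-1.31) and the gefitinib arrays (-1.82), and the acetyltransferase EP300 was lowered on the gefitinib arrays (-1.34).

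Other known FOXO targets, 25 tested genes, had 13 raised and 1 lowered on the luteolin arrays, with a median of 1.32 where that of all genes was 0.08. Of these genes, 7 were raised and 4 lowered on the gefitinib arrays (median 0.44), and on the L+G arrays 8 were raised and 1 lowered (median 0.48). The lists were chosen with earlier results of these data known, so their shares are not ranked against each other. ERBB3, SESN1 and TRIB1 are counted here and in another list. FBXO32, a ubiquitin ligase of muscle atrophy, read 13.2 and 19.96% with DMSO and 100.2 and 121.1% on the luteolin arrays, a rise of 2.76 (adjusted p = 0.00137). KLHL24 rose by 2.55 (adjusted p = 0.000644) on the luteolin arrays and had -0.73 on the gefitinib arrays. The zinc finger factor KLF2 was raised on the luteolin arrays (3.17) and the gefitinib arrays (2.95), and KLF6 was raised in all 3 groups, by 1.81, 3.78 and 1.98. The MondoA arm and other alpha-arrestins had 11 tested genes, with 1 raised on the luteolin arrays, 2 raised and 1 lowered on the gefitinib arrays, and 3 raised on the L+G arrays. ARRDC3, an alpha-arrestin like TXNIP and ARRDC4, read 20.6 and 19.6% with DMSO and 78.2 and 80.96% on the L+G arrays, a rise of 1.99 (adjusted p = 0.00225). The glucose transporter gene SLC2A1 rose by 1.85 (adjusted p = 0.00493) on the L+G arrays. MLXIP, which encodes MondoA itself, was lowered on the gefitinib arrays (-1.45, adjusted p = 0.000552), and its relative MLXIPL was raised on the gefitinib arrays (1.62) and the L+G arrays (1.07).

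**Figure D4:**
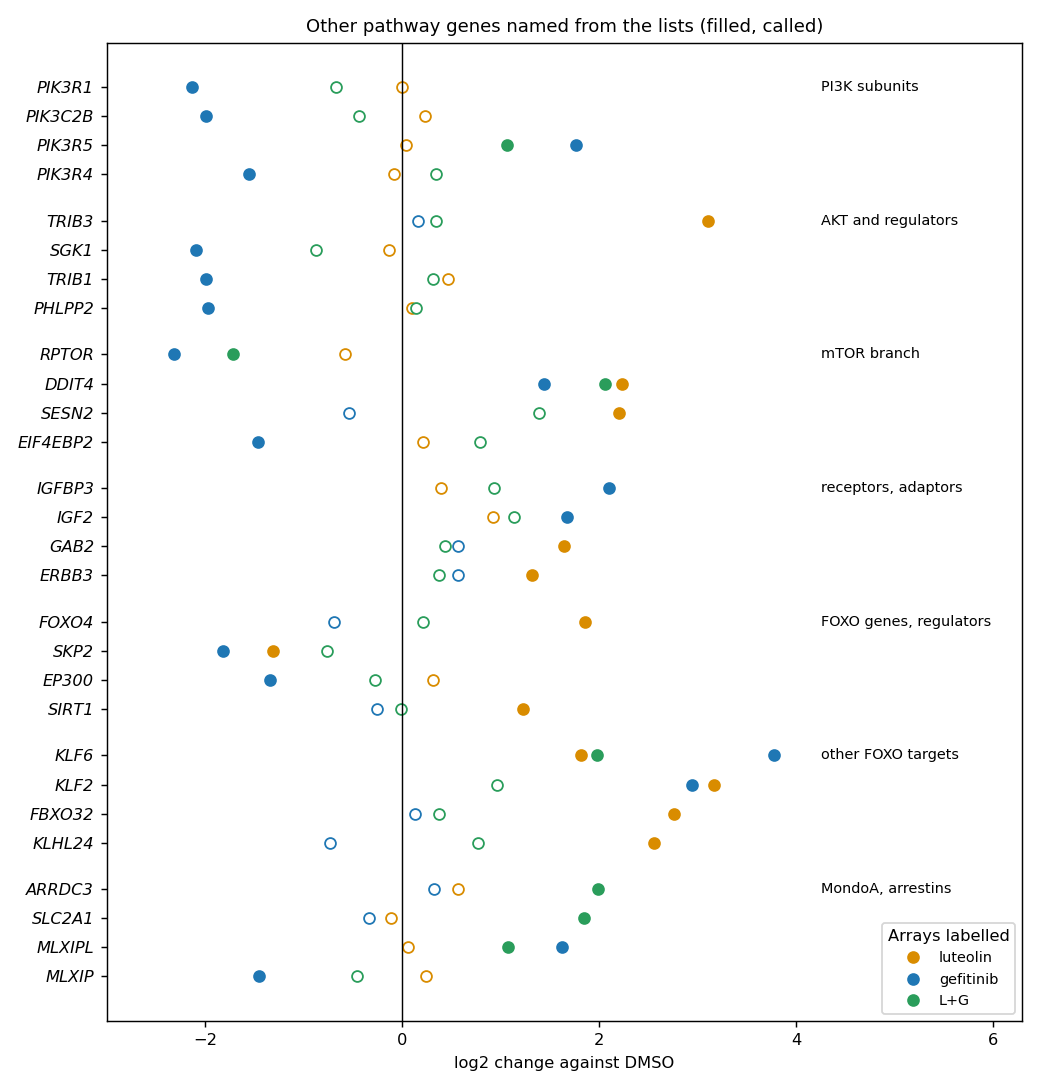
Log2 change against DMSO of 28 genes named from the 7 lists of other pathway genes, in the arrays labelled luteolin, gefitinib and L+G, grouped by list. Filled points passed the adjusted p and 2-fold limits. The gefitinib points of PIK3R1, PIK3C2B and PIK3R4 lie left of 0, the luteolin points of KLF2, FBXO32 and KLHL24 right of 2, and ARRDC3 and SLC2A1 are filled on the L+G arrays alone.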

How the data were processed

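The authors deposited 1 Agilent Feature Extraction scanner file per array (version 10.7.3.1 per the file headers) with linear intensity values, already corrected within the array for background and spatial trend but not normalized between arrays. The deposited value matrix held the same intensity at 45015 of 45015 spots on each array (relative tolerance 1e-04). No column of per-sample values was left unused. Control and outlier spots were left out, log2 signals were set relative to the array's 75th percentile, and spots of a probe were averaged. Probes were kept if some group had them well above background (in 50% or more of their spots) on each of its arrays, 28776 of 41000, including 13 of the 15 probes of the 10 genes. A gene was represented by its brightest probe. RefSeq matched the accessions of 23958 probes.

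Groups were compared with limma 3.58.1 in R 4.3.3 (data.table package, version 1.17.8) over all 10 arrays (degrees of freedom 5 residual, 3.36 prior) and with Benjamini-Hochberg adjustment over all probes kept. Calls needed a log2 change of 1 or more in either direction with an adjusted p below 0.05, and the interaction needed the adjusted p alone. The code of the fit was tried on simulated arrays with independent noise and few changed probes. The data differ in both respects, so this checks the code and not the error rates here. Genes named from the lists are up to 4 per list called in a drug-treated group, those with the largest change, with each array compared well above background. For likeness, the 5 nearest to TXNIP and to IRS2 are named. The 10 genes and the lists were chosen with earlier results of these data known. Alternatives were normexp (offset 50), quantile normalization, the deposited value matrix, no filter, a filter requiring all 10 arrays to be well above background, fitting only the compared groups, a block for replicate number or for slide, treatments taken from the file names, dropping the fold limit, a gene's median over its probes, the methods' t-test and leaving out each array. Signal over background limits dim genes, and 2 arrays per group limit the precision. Coordinates of probes are those of the files (hg18). The labels give a culture temperature of 35°C and the methods 37°C. Some genes of the lists are not reported here.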

Additional observations from a re-analysis of the deposited data

Results flagged for a closer look

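With treatments taken from the labels, which may be exchanged, the change on the L+G arrays departed from the sum of the changes on the luteolin and gefitinib arrays, by a test of the interaction in limma, for 4 of the 9 tested genes, where 34.2% of all genes did. The interaction was 3.07 for TXNIP (adjusted p = 0.00406), 3.15 for ARRDC4 (adjusted p = 0.00133), -2.38 for IRS2 (adjusted p = 0.00835) and -1.47 for PIK3IP1 (adjusted p = 0.0111). The 2 gefitinib arrays of TXNIP (257.7 and 113.4% of the 75th percentile) and of IRS2 (171.8 and 76.9%) were far apart beside these values, and their part in them was not tested beyond leaving each array out, under which all 4 interactions stayed past the threshold. With treatments taken from the file names the interactions of TXNIP and ARRDC4 turned to -2.77 and -2.20.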

How the results depend on the processing

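Of the 18 called results against DMSO and for the interaction, all 18 kept direction and call with the deposited value matrix, slide as a fixed block, fits of only the compared groups, no fold limit and a filter requiring all 10 arrays well above background. Quantile normalization, no filter and a gene's median over its probes ended 1 call each and normexp 2, all named above. Same-numbered arrays of different groups deviated together in part, with a correlation above 0.1 for 6 of 10 pairs of groups and from -0.098 to 0.293 in all. Slide 1 held 4 arrays of replicate 1 and slide 2 held 4 of replicate 2, so number and slide are largely the same. Since 4 pairs were not above 0.1, the fit without the block was kept. Every pair with DMSO was above it, at 0.293 (0 h), 0.216 (luteolin), 0.185 (gefitinib) and 0.101 (L+G). That reason therefore does not cover the comparisons against DMSO, for which the counts of both fits are given. With the replicate block 4, 6 and 4 genes were changed against DMSO in the luteolin, gefitinib and L+G arrays, as without it, and 5 in place of 4 for the interaction (FOXO3, 0.77, adjusted p = 0.0435). Quantile normalization moved the median change of all probes against DMSO from 0.22 to 0.06 with gefitinib and from 0.16 to -4.32e-05 with L+G.

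When the file names gave the treatments, 5 of the 18 called results were kept, 4 lost the call and 9 turned in sign. The genes changed against DMSO were then TXNIP, IRS2, FOXO3 and ARRDC4 (raised) for luteolin, BCL6, FOXO1, IRS2 and PIK3IP1 (raised) for gefitinib, and IRS2 (raised) and TXNIP, BCL6, FOXO1, IRS1 and INSR (lowered) for L+G. Calls lost without a change of sign were BCL6 (0.29, adjusted p = 0.434), FOXO1 (0.43, adjusted p = 0.227) and PIK3IP1 (0.70, adjusted p = 0.0447) for luteolin and TXNIP (-0.15, adjusted p = 0.812) for gefitinib, and for L+G IRS1 (-1.57) and INSR (-1.25) became called. The changes that turned against DMSO in sign became 1.24 (TXNIP), -0.89 (IRS1), 1.96 (ARRDC4) and -0.029 (INSR) for luteolin, 1.34 (BCL6), 1.10 (FOXO1), 0.12 (IRS1), 0.60 (FOXO3) and 0.53 (INSR) for gefitinib, and -1.68 (TXNIP), -1.42 (BCL6), -1.22 (FOXO1), -0.31 (FOXO3) and -0.71 (ARRDC4) for L+G. The interactions became -2.77 (TXNIP), -3.04 (BCL6), -2.75 (FOXO1), -0.79 (IRS1), -1.97 (FOXO3), -2.20 (ARRDC4) and -1.75 (INSR), 9 genes then passed for the interaction and 5 were changed in L+G against 0 h. This follows from the exchange of the groups. With normexp, INSR had 0.28 in L+G and -0.022 for the interaction, 3 genes were changed with gefitinib against 0 h and 3 in L+G against luteolin, and the cause was not tested. With no fold limit 5 genes were changed in L+G against 0 h. By the methods' t-test against 0 h, 0 genes passed with luteolin and 1 with gefitinib at the unadjusted threshold, and after adjustment 0 passed with luteolin, 0 with gefitinib and 0 with L+G.

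Leaving out each array in turn gave 2 to 4 changed genes for luteolin, 5 to 6 for gefitinib and 2 to 4 for L+G against DMSO, 3 to 4, 5 to 7 and 2 to 4 against 0 h, 0 for DMSO against 0 h, 4 to 7 for luteolin against gefitinib, 1 to 5 for L+G against luteolin, 5 to 6 for L+G against gefitinib and 4 to 5 for the interaction. Without luteolin replicate 2 or either DMSO array, 2 of the 4 luteolin calls against DMSO (IRS2 and PIK3IP1) were left, and without DMSO replicate 1, 2 of the 4 L+G calls (IRS2 and ARRDC4). Signs turned for changes that were not called, TXNIP with luteolin (from -0.51 to 0.21 as arrays were left out), BCL6 with L+G (-0.043 to 0.62) and INSR with L+G (-0.33 to 0.27). A lone array of a group was assumed to vary like the other groups. Signal over background limits SESN3 and the second PIK3IP1 probe.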
